A study of Mus musculus with 26 samples.

Results

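Apical progenitors, the radial glia that line the ventricle, were examined in 8 libraries of single nuclei from the prospective somatosensory cortex of male E15.5 mouse embryos. A nucleus with at least 500 UMIs and 200 genes was counted as an apical progenitor when its summed UMIs of Sox2, Pax6, Hes5, Slc1a3, Tnc, Ednrb and Ccdc80 were at least 3, Eomes and Gad1 plus Gad2 were at 0, and the sum of 6 mitotic genes (Top2a, Mki67, Cenpf, Kif11, Kif15 and Knl1) was at most 2. This gave 2620 of 43456 nuclei, or 6.03%. The members were therefore chosen by measured counts, and the levels of these genes describe the choice and are not findings. The embryos were wild type or Csf1r-/- (Csf1r null, which lack microglia), all on a C57Bl/6N background. At E12.5 their mothers received an intraperitoneal injection of either saline or poly(I:C), a mimic of double-stranded RNA used to induce maternal immune activation (MIA). Each of the 4 groups had 2 libraries made from 1 or 2 embryos each. The paper counts 4 pregnant dams in all and calls the wild-type embryos littermate controls. No source used here gives the dam of each library, so litters could not enter the tests, and p-values measure the spread between these libraries only.

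Apical progenitors carry a fine process to the pia and a foot at the ventricle, held there by adherens junctions. They renew themselves or give rise to Eomes-positive intermediate progenitors and neurons, and later to glia. Notch signalling from neighbouring cells keeps them undifferentiated: cleaved Notch binds RBPJ and turns on Hes1 and Hes5, which repress proneural genes such as Neurog2. During the cell cycle their nuclei move away from the ventricle for S phase and return for mitosis. Nuclei that met the marker threshold but exceeded the limit on mitotic transcripts were not members and are called dividing progenitors (1982 nuclei). The other nuclei, or all other nuclei, of the text below are all nuclei that were not members. They therefore include the dividing progenitors, the Eomes-positive nuclei and nuclei just under the marker threshold.

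Hes5 is one of the genes of the choice and a classic RBPJ target, so the 250 bases before its start in RefSeq (GRCm38.p6, plus strand, chr4:154960673-154960922) are shown, with the core of the RBPJ motif, TGGGAA or its reverse complement TTCCCA, in capitals.
Hes5: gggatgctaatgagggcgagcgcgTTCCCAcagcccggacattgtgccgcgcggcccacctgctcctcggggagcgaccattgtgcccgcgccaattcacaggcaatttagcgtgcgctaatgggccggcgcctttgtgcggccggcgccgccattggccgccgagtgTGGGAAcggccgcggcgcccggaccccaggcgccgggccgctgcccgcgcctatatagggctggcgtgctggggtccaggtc
The 2 matches begin 226 and 82 bases before the start. These 6 letters are common: 21.6% of 32851 RefSeq promoter windows of the same length hold them on either strand. A match is a description of the sequence and not of binding.

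The libraries labelled wild type MIA replicate 2 and Csf1r null saline replicate 2 went against their labels in a list of 12 microglial genes. In all other nuclei this list stood at 1.17 CPM (UMIs of the gene or list per 1000000 UMIs) in the former and at 14.1 CPM in the latter, against 13.2 to 29.9 CPM in the other 3 wild-type libraries and 0.566 to 1.53 CPM in the other 3 null libraries. Over all nuclei Csf1r itself, the deleted gene, had 1 UMI in the former and 10 in the latter, against 11 to 23 UMIs in the other wild-type and 1 to 4 in the other null libraries. Whether the 2 were exchanged was not tested. They differ in both genotype and treatment, so directions of MIA against saline and between genotypes rest on the labels. Left out together, a lone library stands for each of 2 groups and is assumed to vary like the rest. The log2 changes after MIA in wild type were then -1.36 for Fdps, -1.35 for Fabp7, -1.36 for Cst3 and -1.08 for Dbi (edgeR adjusted p = 0.984 each). The genotype differences were then -1.01 for Gapdh after saline and -0.59 for Notch2 after MIA, and no gene among the smallest p values of a comparison or called with the block changed its sign. Wild type saline replicate 1 held many ventral transcripts. Of its nuclei 22.7% had a Gad1 or Gad2 UMI, against 3.14% to 5.54% elsewhere. The replicate number goes with the software: replicate 1 libraries were counted with Cell Ranger 3.1.0 and replicate 2 libraries with 6.0.1. Any 2 libraries shared at most 14 barcodes. The members summed to 5236077 UMIs, 475548 to 841718 per library, and their median was 1214 to 2214.5 UMIs per nucleus.

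The 7 genes of the choice were found at unequal rates. Pax6, a transcription factor of dorsal radial glia, had a UMI in 63.9% to 82.4% of members per library, and Slc1a3, a glial glutamate transporter, in 53.0% to 70.4%. Hes5 was found in 36.8% to 56.6%, Sox2 in 39.2% to 58.7% and Ednrb, an endothelin receptor, in 23.5% to 40.7%. The matrix gene Tnc was found in 11.2% to 28.2%. Pax6 stood at 1422 and 1424 CPM in the null replicate 2 libraries after saline and MIA, and at 649.8 to 953 CPM in the other 6 libraries. Among nuclei that met the other conditions, 711 lay just inside the threshold with a sum of 3 and 1350 just outside with a sum of 2. Summed over 7 radial glial genes that the rule did not use (Vim, Nes, Fabp7, Sox9, Notch1, Emx2 and Hes1), all members stood at 2055 to 5088 CPM per library, those with a sum of 3 at 689.6 to 2102 CPM, those with a sum of 2 at 262 to 1193 CPM, and nuclei with none of the markers at 151 to 250.3 CPM. Nuclei just outside the threshold were thus intermediate, and the edge of the class is a range rather than a gap.

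Set beside all other nuclei, apical progenitors carried the known genes of radial glia. These values describe the class and were not tested, since the choice used the same nuclei. Among 4575 genes of at least 50 CPM in members, 388 had a mean log2 ratio to other nuclei of at least 1 and 139 of at most -1. All 21 measured genes of a radial glial list and all 22 genes of an S-phase list were higher in members in all 8 libraries, as were 22.6% of the 13827 genes of at least 1 CPM. The Notch target Hes1 stood at 400.4 ± 132 CPM (SD, n = 8) in apical progenitors and at 44.6 ± 9.27 CPM in other nuclei. The receptor Notch2 stood at 469 ± 125 against 55.9 ± 17.3 CPM, and Lfng, which tunes the response of Notch to its ligands, at 89.8 ± 25.5 against 9.54 ± 3.24 CPM. The ligand Dll1 was at 39.8 ± 14 CPM in apical progenitors and 143 CPM in Eomes-positive nuclei (1962 nuclei, chosen by that gene). Hes1, Notch2 and Lfng were also high in dividing progenitors, at 587, 579 and 119 CPM, and low in Eomes-positive nuclei, at 32.4, 55.7 and 6.93 CPM.

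Of the 20 genes with the highest ratio outside the rule, the top was Veph1 at 103 ± 24.9 CPM (mean log2 ratio 3.38). Several encode secreted or surface proteins: Igfbp5, which binds insulin-like growth factors (177 ± 16.8 CPM), Tgfb2, a growth factor of the TGF-beta family (112 ± 14.7 CPM), Mfge8, a bridge for engulfing cell debris (237 ± 76.4 CPM), and Vcam1, an adhesion molecule (97.4 ± 33.7 CPM). Lipg, a lipase, was at 118 ± 24.9 CPM, Lrp4, an LDL-receptor family member, at 112 ± 23.6 CPM, and Pdpn, a membrane glycoprotein, at 198 ± 83.7 CPM. The helix-loop-helix inhibitor Id4 was the most abundant at 581 ± 60.5 CPM, and its libraries ranged from 487 to 647 CPM. Others were 9430041J12Rik, Lfng, Plce1, Megf10, Hes1, Gm26532, Notch2, Vit, S1pr1 and Gm27239, between 55.0 and 469 CPM.

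**Figure D1:**
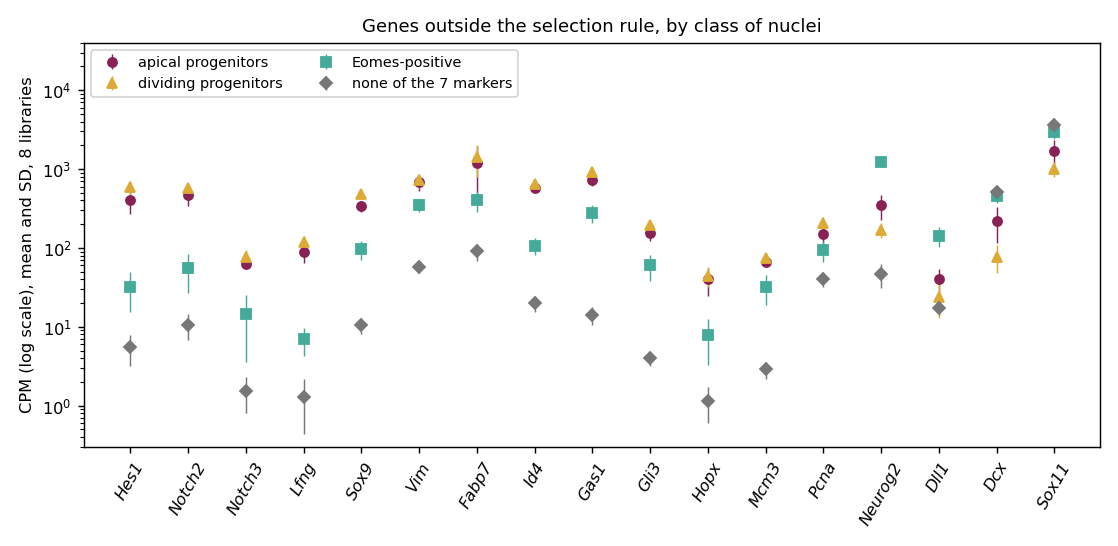
Mean CPM on a log axis, with the SD over 8 libraries, of genes that the selection did not use, in apical progenitors, dividing progenitors, Eomes-positive nuclei and nuclei with none of the 7 markers. Hes1 and Lfng were low outside the first 2 classes, while Neurog2 and Dll1 were highest in Eomes-positive nuclei.

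Apical progenitors were close to dividing progenitors in the genes that set them apart from other nuclei. None of the 388 genes was also higher than in dividing progenitors by a mean log2 ratio of 1. Sox9, a transcription factor of radial glia, stood at 340 ± 54.9 CPM against 477 ± 42.3 CPM, and the intermediate filament Vim at 684 ± 161 against 729 ± 145 CPM. S-phase transcripts were present in both: the replication helicase subunit Mcm3 stood at 67.3 ± 6.75 and 74.8 ± 7.63 CPM, against 2.91 CPM in nuclei with no marker. Neurog2, a proneural factor, was higher in apical progenitors, at 349 ± 125 CPM against 170.3 ± 38.3 CPM in dividing progenitors, and was at 1230 CPM in Eomes-positive nuclei. Ung, a repair glycosylase (53.8 against 31.7 CPM), and Nme4, a nucleoside diphosphate kinase (106 against 62.9 CPM), had the highest ratios to dividing progenitors among the 388 genes, to which Neurog2 does not belong, and these 2 were chosen after their values were seen.

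Single genes were found in only a part of the members, and at this depth a UMI can be missed in a nucleus that expresses the gene. Whether members varied among themselves was not tested. With every nucleus thinned to 1000 UMIs, which left 219 to 338 members per library, 21.3% to 37.9% of members per library had a UMI of Hes1, against 0.251% to 0.705% of nuclei with no marker. Neurog2 was found in 14.2% to 25.7% of thinned members and 3.02% to 4.90% of nuclei with no marker. Without thinning, these shares of members were 31.2% to 44.9% for Hes1 and 23.0% to 33.5% for Neurog2. Pcna, a replication clamp, was found in 9.13% to 17.8% of thinned members. Hopx, a marker of outer radial glia, was found in 2.28% to 8.58% of thinned members and 0.0341% to 0.226% of nuclei with no marker. For these 4 genes the share in members was above that in nuclei with no marker in each library at the same depth.

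Lists of signalling, polarity and matrix genes held members of both directions, read beside the 22.6% of genes of at least 1 CPM that were higher in all 8 libraries. The share of all genes that were lower in all 8 libraries was not taken, so counts of lower genes have no background here. In the FGF and Shh list 13 of 18 genes were higher in members in all 8 libraries and 1 was lower. Gas1, a co-receptor of Shh, stood at 717 ± 108 CPM against 101 ± 20.6 CPM in other nuclei, and the receptor Fgfr3 at 98.4 ± 11.7 against 18.1 ± 3.19 CPM. In the cortical patterning list 12 of 20 were higher and 3 lower: Gli3, which restrains ventral fate, was at 155 ± 32.7 against 21.0 ± 4.24 CPM, and the Wnt receptor Fzd8 at 153 ± 42.4 against 23.1 ± 3.92 CPM. Of the apical junction list 9 of 21 genes were higher in all libraries and 4 lower, with Crb2, a polarity protein of the apical membrane, at 30.4 ± 9.39 against 3.97 ± 0.834 CPM. Of the list of basal process and matrix genes 11 of 18 were higher and 6 lower. The adhesion receptor Adgrv1 was among the higher, at 123 ± 23.7 against 15.4 ± 4.34 CPM. Of the glial and outer radial glial list 8 of 20 were higher and 2 lower. Its astrocyte genes were not all alike. Gfap had 2 UMIs in all, Aqp4 stood at 0 to 4.33 CPM, and Aldh1l1 at 52.1 CPM in wild type saline replicate 1 and 0 to 5.81 CPM elsewhere. Aldoc, another of them, stood above these levels in the wild-type libraries, as given below. The most abundant of that list were Nfib and Nfia, factors that also act in neurons, at 2703 ± 728 and 1106 ± 221 CPM in members against 3592 ± 627 and 1257 ± 306 CPM in other nuclei.

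Receptors for pathogens and cytokines were read beside all 30406 genes, of which 17502 had at least 1 UMI in members. Genes without a UMI were thus common in general. Of 34 receptor genes, 15 had no UMI among all 5236077 UMIs of the members, which allows up to 0.573 CPM each, counting error only. These include Il6ra, Il1r1 and Tlr7. Il6st, the shared signalling receptor of the interleukin 6 family, was measured at 17.1 ± 3.76 CPM (89 UMIs, n = 8), and Lifr, its partner for leukaemia inhibitory factor, at 15.8 ± 6.12 CPM. Tlr3, an endosomal sensor of double-stranded RNA, had 32 UMIs in members, or 6.31 ± 4.00 CPM against 0.683 ± 0.259 CPM in other nuclei, and was too low to be tested. Ifnar1 and Ifngr2, subunits of the interferon receptors, stood at 72.1 ± 11.6 and 81.7 ± 21.4 CPM. Of 24 interferon-response genes, 3 had no UMI in members (Irf7, Oas1a and Oas2). Isg15 had 0 to 3.56 CPM and Ifit1 0 to 1.19 CPM per library.

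Transcripts of other cell types were also counted in members. Summed over a ventral progenitor list of 12 genes, members of wild type saline replicate 1 stood at 332 CPM and those of the other 7 libraries at 32.5 to 61.0 CPM. In that library 84 of 305 members (27.5%) had a ventral UMI, against 4.86% to 7.29% elsewhere. It held 31 UMIs of Gsx2, a factor of the ventral germinal zone, against 5 in Csf1r null saline replicate 2 and 0 in the other 6 libraries. A projection neuron list of 12 genes stood at 1839 to 3746 CPM in members and at 4919 to 5970 CPM in other nuclei. Per library, 40.5% to 64.9% of members had 2 or more UMIs of that list. Whether such transcripts had a part in the changes of radial glial genes given below was not tested. Hemoglobin genes stood at 155 to 592 CPM, highest in the 2 wild-type saline libraries, and a fibroblast list at 138 CPM in wild type saline replicate 2 against 2.88 to 33.4 CPM elsewhere. The microglial list was at 0 to 6.69 CPM in members, with Cx3cr1, Fcrls, Trem2 and Mrc1 at 0 in every library. Scrublet scores at the expected doublet rate marked 1917 of all 43456 nuclei, and a larger share of members, 192 of 2620 (7.33%). Their part in the results was not tested except where values without them are given.

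**Figure D2:**
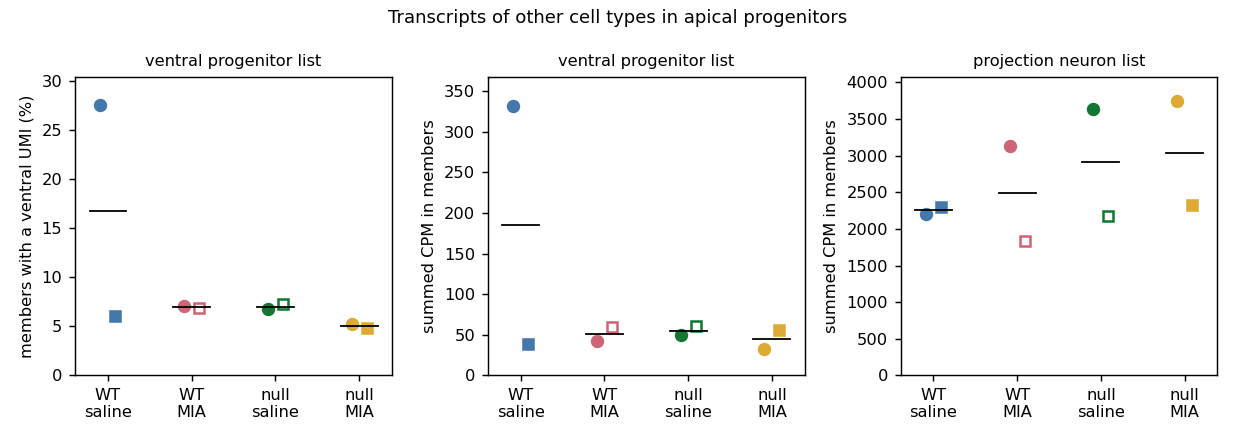
Percent of members with a UMI of the ventral progenitor list, and summed CPM of the ventral progenitor and projection neuron lists in members, per library. Circles are replicate 1, squares replicate 2, lines group means, and hollow symbols the 2 libraries that went against their labels. Wild type saline replicate 1 is at 27.5% and 332 CPM.

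The first comparison asked whether the share of apical progenitors among nuclei changed. After saline it was 6.50% and 6.08% in wild type, and after MIA 6.02% and 7.42%. In Csf1r null embryos it was 5.18% and 5.75% after saline, and 5.45% and 5.97% after MIA. The exact (Clopper-Pearson) 95% interval was 5.81% to 7.25% for wild type saline replicate 1 and of like width elsewhere, and covers counting error only. MIA and saline libraries overlapped, at 6.21% ± 0.844 and 5.88% ± 0.559 (SD, n = 4 each). The difference of 0.334 points was smaller than either spread (2-sided exact permutation test within genotype, p = 0.444). Without members holding a ventral UMI it was 0.688 points, at 5.84% ± 0.751 and 5.15% ± 0.467 (exact permutation p = 0.222), and without the 2 libraries that went against their labels -0.109 points (p = 0.778 by the same exact test, n = 3 each).

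The 4 libraries labelled null lay below the 4 labelled wild type, at 5.59% ± 0.347 against 6.51% ± 0.646 (SD, n = 4 each). The difference was -0.918 points, with p = 0.0556 in a 2-sided exact permutation test within treatment, which is the smallest p this design allows and does not pass 0.05. With nuclei thinned to 1000 UMIs the means were 4.27% ± 0.181 and 5.28% ± 0.706 (exact permutation p = 0.0556), and null libraries lay below wild-type ones within each treatment, but null MIA replicate 2 at 4.48% was above wild type saline replicate 2 at 4.33%. The groups also overlapped without members that held a ventral UMI, where the shares were 5.25% ± 0.355 and 5.73% ± 0.904 (exact permutation p = 0.389) and wild type saline replicate 1 was the lowest library at 4.71%. The order rests on the labels, since the 2 libraries that went against them were at 7.42% (wild type MIA replicate 2) and 5.75% (null saline replicate 2). Without these 2 libraries the means were 5.53% ± 0.403 and 6.20% ± 0.263 (n = 3 each; exact permutation p = 0.111, the smallest possible). Within replicate numbers the difference was the same by construction, with an exact permutation p = 0.125, again the smallest possible.

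**Figure D3:**
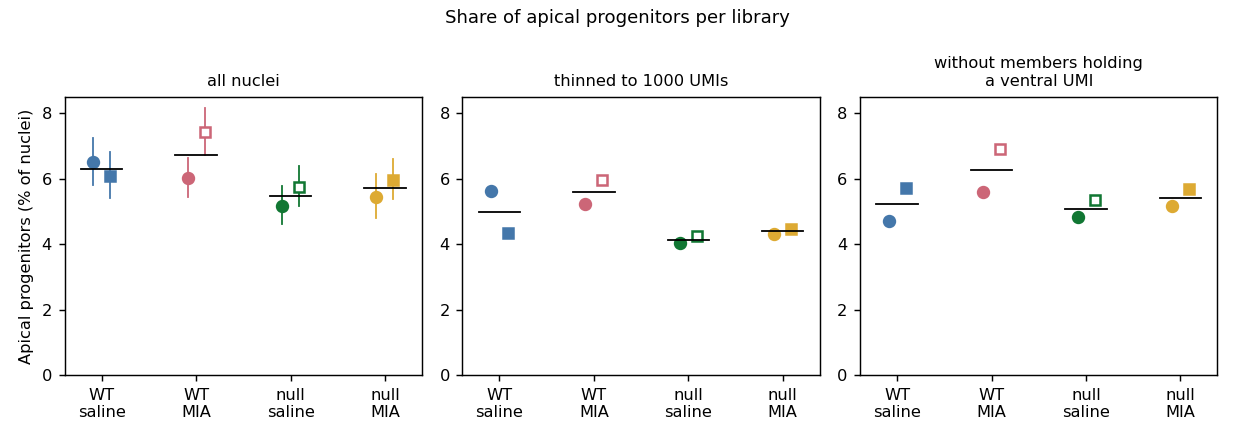
Apical progenitors as percent of nuclei per library, with exact 95% intervals in the left panel, after thinning to 1000 UMIs, and without members holding a ventral UMI. Circles are replicate 1, squares replicate 2, lines group means, and hollow symbols the 2 libraries that went against their labels. Libraries labelled null lie below those labelled wild type at left, and the groups overlap at right.

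The second comparison asked which genes of apical progenitors differed after MIA in wild-type embryos. No gene passed an adjusted p of 0.05 among 9909 tested (0.0%; edgeR quasi-likelihood test on UMIs summed per library, Benjamini-Hochberg adjustment). At an unadjusted p under 0.05 there were 555 genes, 352 lower (3.55%) and 203 higher (2.05%), and DESeq2 called 1 gene, Fabp7. In simulated data of this size, 2-fold changes were recovered for 2% of changed genes and 4-fold changes for 76.5%, with 3 and 11 false calls. Moderate changes are thus mostly not detectable by this fit. The simulation held no shared deviation of same-numbered libraries and used no block, so it does not describe the fit with a block below. In bulk sums of a class, fewer expressing nuclei and less RNA per nucleus cannot be told apart. Since same-numbered libraries deviated together, the fit was also made with the replicate number as a block. It called 7 genes in wild type, all lower after MIA (0.0706%), among them Fdps, Hist1h2ap, Fabp7, Dlx6os1, Cst3 and Dbi.

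Fdps (ENSMUSG00000059743, chr3:89093588-89101959, minus strand), which makes farnesyl diphosphate for cholesterol and protein prenylation, had the smallest p. It stood at 310.2 and 286 CPM in the wild-type saline libraries and at 120.0 and 138 CPM after MIA. In the null libraries it was at 173 and 199.8 CPM after saline and at 130 and 178 CPM after MIA. Both wild-type saline libraries were above the other 6, and the log2 change in wild type was -1.23 (SE 0.23; edgeR adjusted p = 0.840, and 0.0203 with the replicate block). Other genes of sterol synthesis were not part of a fixed list and are not described.

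Fabp7, the brain lipid-binding protein of radial glia (ENSMUSG00000019874, chr10:57784881-57788450), stood at 2998 and 1456 CPM in wild type after saline and at 903 and 734 CPM after MIA. In null libraries it was at 933 and 1049 CPM after saline and at 566 and 954 CPM after MIA. The wild-type saline libraries were again the highest, and they differed from each other by more than the other groups did. The log2 change in wild type was -1.46 (SE 0.32; edgeR adjusted p = 0.840, and 0.0259 with the block). In all other nuclei of the wild-type libraries the log2 change of Fabp7 was -0.73, and the difference between the classes was -0.69 (SE 0.19; edgeR adjusted p = 0.731).

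Dbi, the acyl-CoA-binding protein (ENSMUSG00000026385, chr1:120113280-120121078), stood at 1564 and 1393 CPM after saline and at 722 and 645 CPM after MIA in wild type (log2 change -1.14; edgeR adjusted p = 0.0394 with the block and 0.840 without it). Null libraries were at 757 and 793 CPM after saline and at 464 and 906 CPM after MIA. Cst3, a secreted protease inhibitor (ENSMUSG00000027447, chr2:148871722-148875692), stood at 1145 and 880.2 CPM after saline and at 409 and 483 CPM after MIA in wild type (edgeR adjusted p = 0.0384 with the block and 0.840 without it). The 2 MIA libraries of Cst3 and Dbi lay below both saline libraries, and null libraries of both treatments lay below the wild-type saline ones. With the block and without members that held a ventral UMI, Fdps, Fabp7 and Cst3 were at edgeR adjusted p values of 0.0234, 0.0256 and 0.0356. Dbi was at 0.050015 by the same test, at the edge of the threshold, with a log2 change of -1.05 against -1.14 with those members.

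Dlx6os1, an antisense RNA of the interneuron gene Dlx6 (chr6:6820189-6871592), stood at 106 and 37.0 CPM after saline and at 8.32 and 14.4 CPM after MIA, and no longer reached the count filter without members holding a ventral UMI. Hist1h2ap, a histone gene with near-identical copies, so that its counts are uncertain, moved with the replicate number: 46.8 and 370.2 CPM after saline and 14.3 and 115 CPM after MIA in wild type, and 26.1, 404, 23.6 and 555 CPM in null libraries. For both genes the saline libraries were above the MIA libraries within each replicate number in wild type.

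Among the 10 smallest p values in wild type, 2 genes were higher after MIA. P2rx4, an ATP-gated channel (chr5:122707544-122729738), stood at 2.67 and 3.37 CPM after saline and at 35.6 and 24.5 CPM after MIA (log2 change 3.24, SE 0.74; edgeR adjusted p = 0.840). In null libraries it was at 14.5 and 2.10 CPM after saline and at 17.7 and 11.6 CPM after MIA, between the wild-type groups apart from 1 library. In wild type saline replicates 1 and 2, 1 UMI is 1.34 and 1.68 CPM. Their P2rx4 values therefore rest on few UMIs, and its fold is uncertain. The other was 2410018L13Rik, at 22.7 and 16.8 CPM against 51.1 and 59.1 CPM (log2 change 1.43). Gapdh, a glycolytic enzyme with many pseudogene copies, stood at 1596 and 1380 CPM after saline and at 879 and 857 CPM after MIA (log2 change -0.80). Nrxn3 (log2 change -1.08), a synaptic adhesion gene of the projection neuron list, and Adarb2, of the RNA-editing enzyme family (26 and 9 UMIs after saline and 1 and 1 after MIA), complete the 10.

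**Figure D4:**
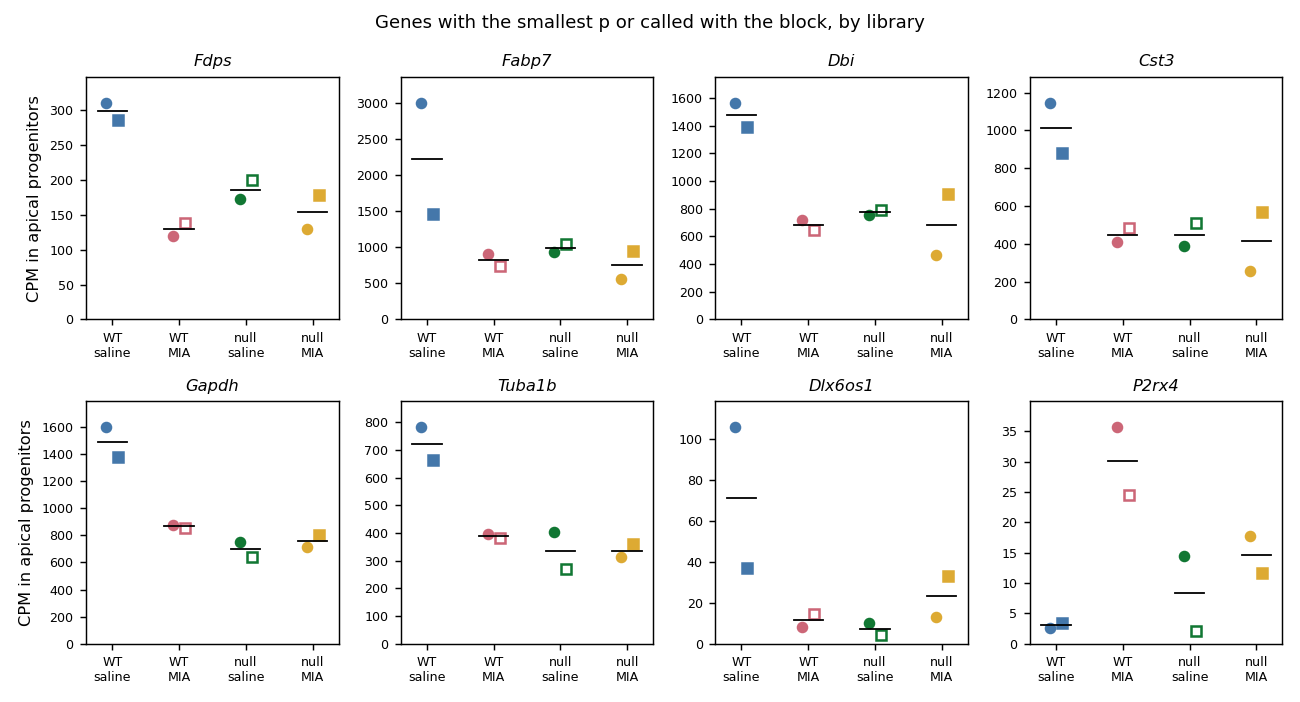
CPM in apical progenitors per library for 8 genes with small p values in wild type or called with the replicate block in a comparison. Circles are replicate 1, squares replicate 2, lines group means, and hollow symbols the 2 libraries that went against their labels. For Fdps, Fabp7, Dbi, Cst3, Gapdh and Tuba1b both wild-type saline libraries lie above all others.

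Lists of genes were read beside these background shares. Of the proteasome genes, which encode the subunits of the cell's main protease, 27 of 31 had a negative log2 change after MIA in wild type and 10 an unadjusted p under 0.05, none of them past the adjusted threshold. Their median log2 change was -0.42, against 0.04 over all genes tested. Psma6, a subunit of the core, went from 148 and 188 CPM to 101 and 63.4 CPM (log2 change -1.05, SE 0.28; edgeR adjusted p = 0.840), and Psma7 from 316 and 409 CPM to 244 and 199 CPM. The most abundant, Psma3, stood at 467 and 439 CPM after saline and at 365 and 486 CPM after MIA, and Psmc6, an ATPase of the cap, at 302 and 276 CPM against 255 and 360.5 CPM. In null embryos 13 of 31 were negative, with a median of 0.04 and none at an unadjusted p under 0.05. That direction rested on single libraries, since 22 of 31 were negative without null MIA replicate 2 (median -0.20) and 25 of 31 positive without null MIA replicate 1 (median 0.15). For the difference of the response between genotypes 27 of 31 were positive, 5 with an unadjusted p under 0.05, beside 1.53% of all genes. Without 1 library 22 to 28 of 31 were positive and 0 to 9 had such a p, with 0 without wild type MIA replicate 2 and 9 without null MIA replicate 1. When 1 wild-type library was left out, 2 to 5 genes rather than 10 had an unadjusted p under 0.05 and the median in wild type was -0.37 to -0.50. It was -0.36 without the 2 libraries that went against their labels, where 2 genes had an unadjusted p under 0.05.

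The same sign was found in other nuclei. In all other nuclei of the wild-type libraries 31 of 31 were negative, 19 with an unadjusted p under 0.05, where 4.25% of all genes tested were lower and 1.42% higher at such a p, and the median was -0.48 against 0.01 over all genes. The median difference between apical progenitors and other nuclei was 0.08. Shares of other abundant transcripts were not tested. Ribosomal protein genes made up 4.58% and 5.80% of the UMIs of members after saline and 4.26% and 4.31% after MIA, and Malat1, a nuclear RNA, 8.87% and 10.0% after saline and 9.68% and 10.9% after MIA. The Malat1 values overlapped. For ribosomal protein genes both wild-type saline libraries were above both wild-type MIA libraries, and saline replicate 2 was the highest. In null libraries these genes made up 4.37% and 4.42% after saline and 3.51% and 4.91% after MIA. Whether these shares had a part in the result was not tested.

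**Figure D5:**
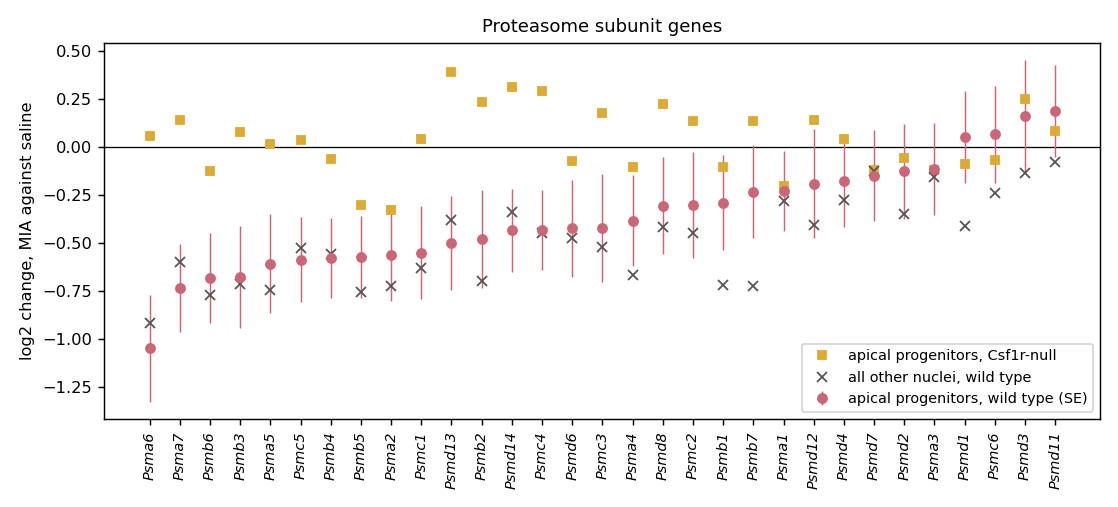
log2 change between MIA and saline of 31 proteasome subunit genes in apical progenitors of wild type (circles, with SE) and Csf1r null embryos (squares), and in all other nuclei of wild type (crosses), ordered by the first. Wild-type values lie mostly below 0 in both classes, while null values scatter around 0.

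Of the radial glial list, 4 of 21 genes were lower and 1 higher at an unadjusted p under 0.05 in wild type, and the median log2 change was -0.13. Without wild type saline replicate 1 the median was -0.03 with 2 lower at such a p, and without wild type saline replicate 2 it was -0.37 with 7. The lower ones were Dbi, Fabp7, Mfge8 (414 and 236 CPM to 203 and 224 CPM) and Ddah1, a dimethylarginine hydrolase (361 and 281 CPM to 204 and 186 CPM). The higher one was Prdm16, a transcription factor that regulates radial glial output, from 96.3 and 74.0 CPM to 129 and 147 CPM. Ptn, a secreted growth factor and the most abundant of the list, stood at 3942 and 4093 CPM after saline and at 2835 and 3051 CPM after MIA (edgeR unadjusted p = 0.103), and Ptprz1, a receptor phosphatase that binds it, at 2210 and 1229 CPM against 1402 and 1090 CPM. In the edgeR fit with the count filter none passed the adjusted threshold without the block and 2, Fabp7 and Dbi, with it. Also without a block, DESeq2 called Fabp7, and edgeR with no filter on low counts called 2 of the list. Id4 and Sox9 moved by 0.13 and 0.16 on the log2 scale.

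Of the Notch list 17 of 19 genes were tested and 2 had an unadjusted p under 0.05, both ligands and both lower. Jag1 stood at 175 and 28.6 CPM after saline and at 46.3 and 37.5 CPM after MIA, where the first library alone was high, and Dll3 at 26.7 and 25.2 CPM against 9.5 and 13 CPM. Hes1 stood at 345 and 429 CPM after saline and at 274 and 522 CPM after MIA, a log2 change of 0.01 (SE 0.43). Notch2 stood at 525 and 502 CPM against 507 and 717 CPM. The list's median was 0.12, with 12 positive and 5 negative, and without wild type MIA replicate 2 it was -0.10, with 8 positive and 10 negative and none at an unadjusted p under 0.05. Hes1 differed more between replicate numbers than between treatments, with 248 to 345 CPM in replicate 1 and 429 to 578 CPM in replicate 2 libraries.

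S-phase genes had a median log2 change of -0.21 in wild type, with 18 of 22 negative. Gins2, a subunit of the replicative helicase, was the only one at an unadjusted p under 0.05, at 70.9 and 67.3 CPM after saline and 35.6 and 34.6 CPM after MIA. Pcna stood at 174 and 254 CPM against 107 and 172 CPM (edgeR unadjusted p = 0.0512), and Ccnd2, the most abundant, at 794 and 821 CPM against 857 and 833 CPM. In null embryos 15 of 22 were positive, with a median of 0.06, but 9 were positive and 13 negative without null MIA replicate 2 (median -0.13), and 10 and 12 without null saline replicate 1 (median -0.01). In other nuclei of wild type, which include the dividing progenitors, the median was -0.21 as well.

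The remaining lists had at most 3 members each at an unadjusted p under 0.05, to be read beside 3.55% of all genes lower and 2.05% higher. Proneural genes were positive in 11 of 11 tested, with a median of 0.28 and none at an unadjusted p under 0.05. Without wild type MIA replicate 2, 6 were positive and 5 negative, with a median of 0.13. Of the intermediate progenitor list 5 of 5 tested genes were positive too (median 0.25). Of the projection neuron list 8 of 12 were positive (median 0.25), and 2 of the 4 negative ones had an unadjusted p under 0.05. Whether such transcripts had a part in the proneural values was not tested. Neurog2 stood at 255 and 303 CPM after saline and at 316 and 446 CPM after MIA. Sox11, the most abundant, stood at 1415 and 1266 CPM against 2049 and 1322 CPM. Cortical patterning genes had a median of 0.28, with Lef1 higher, a Wnt effector (6.69 and 10.1 CPM to 10.7 and 46.1 CPM, where the second MIA library alone was high), and Nr2f2 lower (37.4 and 11.8 CPM to 3.56 and 4.33 CPM), which the ventral forebrain also expresses. Without wild type MIA replicate 2 that median was 0.02. Of 15 tested genes of the FGF and Shh list, Boc, a Shh co-receptor, and Dusp6, a target of FGF signalling, were higher at an unadjusted p under 0.05. Boc stood at 45.5 and 40.4 CPM against 65.3 and 77.9 CPM. Of 13 tested genes of the glial list, Aldoc, Mt3 and Sparcl1 were lower at such a p, with Aldoc at 368 and 335 CPM against 233 and 248 CPM. The glial median was 0.01, which became 0.27 without wild type saline replicate 1 and -0.63 without wild type saline replicate 2. The apical junction list (median 0.18, and 0.05 without wild type MIA replicate 1) and the basal process list (median -0.07) had 1 each, Cdc42 and Itgb8, both lower, and the basal process median was 0.18 without wild type saline replicate 1. Medians of the tested receptor and interferon genes were 0.29 (10 of 34 tested) and -0.03 (6 of 24 tested), with none at an unadjusted p under 0.05. The receptor median was -0.05 without wild type MIA replicate 1 and 0.54 without wild type saline replicate 1, and the interferon median -0.29 without wild type MIA replicate 2. Ifnar1 stood at 68.2 and 52.2 CPM against 87.9 and 72.1 CPM, and Irf3 at 80.2 and 95.9 CPM against 74.8 and 89.4 CPM.

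In Csf1r null embryos no gene passed the adjusted threshold after MIA (0.0% by edgeR), and 132 had an unadjusted p under 0.05, 60 lower (0.606%) and 72 higher (0.727%). That count was larger with the replicate block (217) and when any of the null libraries, saline or MIA, was left out. DESeq2 called 0. Nrxn3, a synaptic adhesion gene, had the smallest p, at 26.1 and 23.1 CPM after saline and at 72.4 and 81.3 CPM after MIA (log2 change 1.62, SE 0.30; adjusted p = 1.00). It belongs to the projection neuron list, and whether neuronal transcripts in members had a part in its values was not tested. Nfkbil1 stood at 30.5 and 27.3 CPM after saline and at 10.3 and 11.6 CPM after MIA (log2 change -1.40), while wild-type libraries were at 26.7 to 28.8 CPM. Irs2, an adaptor of insulin receptors, stood at 24.7 and 27.3 CPM against 54.6 and 50.3 CPM. Reln, secreted by Cajal-Retzius cells, was at 120 CPM in null MIA replicate 1 and 7.74 CPM in replicate 2, against 2.90 and 0 CPM after saline. The others among the 10 smallest p values were Adarb2, S100pbp, Wdr34, Rpap1 and Zfp593, all higher, and Tmem55a, lower.

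The difference of the MIA response between genotypes passed the adjusted threshold for no gene (0.0% by edgeR, and 0 by DESeq2), with 152 genes positive (1.53%) and 106 negative (1.07%) at an unadjusted p under 0.05. More genes had such a p with the replicate block (471 in all) and without null MIA replicate 1. With the replicate block, Nrxn3 (log2 difference 2.70, SE 0.40; edgeR adjusted p = 0.00883) and Adarb2 (0.0376) were called. For Adarb2 no fold is given, since it had 0 and 1 UMI in the null saline libraries and 1 and 1 UMI in the wild-type MIA libraries, against 26 and 9 in wild type after saline and 6 and 17 in null after MIA. In wild type Nrxn3 stood at 115 and 92.6 CPM after saline and at 44 and 56.2 CPM after MIA, opposite in sign to the null libraries above. Neither was called with the block once members holding a ventral UMI were left out, where Nrxn3 was at an adjusted p of 0.972 with a log2 difference of 2.57, close to that with them, and Adarb2 did not reach the count filter. Averaged over genotypes, no gene passed for MIA against saline (0.0% by edgeR and DESeq2), and 352 had an unadjusted p under 0.05. This count was 675 with the block, rose without null MIA replicate 2 and fell without the 2 libraries that went against their labels. The smallest p was that of Fdps again (log2 change -0.75, SE 0.17), followed by Manf, a stress-induced secreted factor of the endoplasmic reticulum, at 410 and 335 CPM after saline and 165 and 199 CPM after MIA in wild type, and at 290.2 and 238 CPM against 140.3 and 223 CPM in null embryos. Xbp1, a factor of the response to unfolded proteins, was at 162 and 103 CPM against 66.5 and 67.8 CPM in wild type, and at 85.6 and 122 CPM against 67.9 and 71.6 CPM in null embryos. For Manf and Xbp1, both MIA libraries were below both saline libraries in each genotype. The others of the 10 were 0610009B22Rik, Clu, Fabp7, Gpr19 and Gins2, lower, and Fbxl20 and P2rx4, higher.

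Genotypes were compared within each treatment, and the comparison after saline shares its wild-type libraries with the one above. After saline no gene passed the adjusted threshold (0.0%; edgeR), 619 had an unadjusted p under 0.05, and DESeq2 called 1, Gapdh. With the block 5 genes were called, all lower in null embryos, among them Nrxn3, Gapdh (753 and 639 CPM in null against 1596 and 1380 CPM in wild type; edgeR adjusted p = 0.0123), Dlx6os1 and Tuba1b, an alpha tubulin (403 and 269 CPM against 781 and 665 CPM; 0.0207). Without members holding a ventral UMI, the block put the log2 difference of Nrxn3 at -2.98 against -2.07 with them, at an adjusted p of 0.0627 (edgeR), and Dlx6os1 was under the count filter, while Gapdh (0.0118) and Tuba1b (0.0199) passed. Of proteasome genes 30 of 31 were negative here, with a median of -0.40 and 10 at an unadjusted p under 0.05, beside 3.86% of all genes tested that were lower and 2.39% higher at such a p. After MIA no gene passed (0.0% by edgeR, and 0 by DESeq2) and 139 had an unadjusted p under 0.05. This count was larger with the replicate block (268), and without either null MIA library or wild type MIA replicate 1. Hist1h2ap was called with the block. The smallest p was that of Notch2, at 341 and 321 CPM in null against 507 and 717 CPM in wild type (log2 difference -0.87, SE 0.21; edgeR adjusted p = 1.00), and the 4 libraries labelled null were at 321 to 422 CPM and the 4 labelled wild type at 502 to 717 CPM. That separation rests on the labels, since the 2 libraries that went against them were at 717 CPM (wild type MIA replicate 2) and 418 CPM (null saline replicate 2). Without them the ranges were 321 to 422 and 502 to 525 CPM, with 3 libraries each. Metrn, a secreted factor that promotes neurite growth and glial differentiation, stood at 13.5 to 24.7 CPM in the 4 libraries labelled null and 41.6 to 64.2 CPM in the 4 labelled wild type. The same 2 libraries were at 44.7 and 18.9 CPM, so with their labels exchanged the ranges of Metrn and Notch2 would overlap, while without them the ranges of Metrn stay as given. Proteasome genes had a median of -0.00 between genotypes after MIA.

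The last comparison asked whether the MIA response of apical progenitors differed from that of all other nuclei in wild type. No gene passed the adjusted threshold among 14107 tested (0.0%; edgeR, and 0 by DESeq2), and 499 had an unadjusted p under 0.05. Dbi was among the 5 smallest p values, with a log2 change lower by 0.75 in apical progenitors than in other nuclei (difference -0.75, SE 0.17; edgeR adjusted p = 0.438). Other nuclei had a log2 change of -0.41 for Dbi. For Gapdh, the difference was -0.11 (SE 0.17), and the change in other nuclei was -0.72, close to that in apical progenitors. P2rx4 had a difference of 3.03 (SE 0.77, edgeR adjusted p = 0.506), which rests on few UMIs after saline. The other genes of the 10 were Sst, Luzp2, Ttyh2, Sema6a, Ntrk2, Hbb-y, Meis1 and Sema6d. Leaving out 1 library changed this count to between 3 and 32 genes, most without wild type saline replicate 2, so a count of 0 here rests on all 8 libraries.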

How the data were processed

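Deposited files are unnormalized count matrices: the authors counted UMIs by gene in each barcode with Cell Ranger (mm10; per the file headers version 3.1.0 for replicate 1 and 6.0.1 for replicate 2). Replicate 1 files list every barcode of the kit and replicate 2 files called ones. Genes were joined by Ensembl identifier (30406 genes). The members, gene lists and tests were chosen with earlier results of these data known. UMIs of members were summed per library and tested with edgeR 4.0.16 in R 4.3.3 (quasi-likelihood test, TMM, filterByExpr, a mean per group over all 4 groups, Benjamini-Hochberg adjustment), and libraries were the replicates. Named genes were those of the rule, the 10 with the smallest p in each comparison (none passed), those called with the replicate block, of each list chiefly the 2 most abundant and the 2 with the smallest p, with other members chosen after their values were seen, and the 20 of at least 50 CPM with the highest ratio to other nuclei. Ratios between classes used log2(CPM + 1). Same-numbered libraries deviated together (correlation of deviations from group means 0.252 to 0.453 over genes in the 6 pairs of groups). The replicate number was therefore added as a block in an alternative fit, while the main tests and the permutation tests of shares were unpaired. That number also marks the software version. The paper gives 4 dams in all, but the sources used here do not give the dam of each library. Tests were checked on simulated counts for 9909 genes. Doublets were scored with Scrublet in scanpy 1.11.5 at 0.8% per 1000 nuclei and kept, and alternatives include DESeq2 1.42.0. Sorted microglia and the study's own cell annotation were not used here. Positions are those of GENCODE M21 (GRCm38). Some genes that these rules name are not reported here.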

Additional observations from a re-analysis of the deposited data

Results flagged for a closer look

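The share of members with a UMI of the ventral progenitor list was 27.5% in wild type saline replicate 1. The next highest wild-type library was at 7.10% and the next highest saline library at 7.29%, so this library stood apart among the 4 libraries of wild type and among the 4 of saline by Dixon's test (gap over range 0.949 and 0.940; both are past the 95% critical value). Of 16 sets of 4 libraries tested over 4 measures these 2 stood out, and they share the library. Chance gives about 1 in 20.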

How the results depend on the processing

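Counts of called genes were 0 in each of the 6 comparisons of apical progenitors, and stayed 0 with RLE size factors, with other marker sums (2 or 4), with nuclei of at least 1000 UMIs, without doublets, without members holding a ventral UMI, without each library in turn (range 0 to 0) and without the 2 libraries that went against their labels. With no filter on low counts, the calls were 43 for MIA in wild type, 2 for MIA in null, 10 for the difference of the response, 16 averaged over genotypes, 29 for genotype after saline and 4 after MIA. With the replicate block they were 7, 0, 2, 0, 5 and 1, where 2 of 21 radial glial genes (Fabp7 and Dbi) were among the 7, and a share could pass 0.05 neither with the block (smallest possible p 0.125) nor without it (0.0556). With the block and without members holding a ventral UMI, chosen after seeing the data, they were 6, 1, 0, 2, 5 and 2. DESeq2 called 1 for MIA in wild type and 1 for genotype after saline. In the same order, 555, 132, 258, 352, 619 and 139 genes had an unadjusted p under 0.05 in edgeR. With the block there were 1037, 217, 471, 675, 1078 and 268, and these counts also moved when single libraries were left out. The cause of these shifts was not tested. For apical progenitors against other nuclei, the count of 0 became 10 with no filter, 2 without the 2 doubted libraries and 3 to 32 without 1 library. The share of apical progenitors, MIA against saline, turned from 0.334 points to -0.0521 among nuclei without Gad1 or Gad2 and to -0.109 without the doubted libraries, was 0.688 without members holding a ventral UMI, and was -0.0674 to 0.589 without 1 library. The genotype difference in share kept its sign under each alternative run. Of single genes, Reln in null turned to -0.35 with a marker sum of 2. Without 1 library, Hist1h2ap ranged from -3.90 to 0.42 in wild type (positive without wild type saline replicate 2) and from -1.41 to 4.34 between genotypes after MIA (negative without null MIA replicate 2), and Luzp2 between classes from -3.82 to 0.41 (positive without wild type saline replicate 1). Depth was 475548 to 841718 UMIs per library with 2 libraries a group, and its part in the counts of 0 was not tested.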
